A study of Rattus norvegicus with 11 samples.

Results

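The miR-7 family comprised the 6 sense features named miR-7a or miR-7b, out of 950 rows and 898 distinct features in a small RNA sequencing table of rat pancreatic islets, and every locus and both hairpin arms were taken by name. The islets came from Sprague-Dawley rats, with 6 libraries from adult males aged 3 months (12 weeks by the characteristics) and 5 libraries from pups of postnatal day 10 (P10, 1.5 weeks). Both groups are described as control animals and their libraries as biological replicates. The study compared mature islets with those of suckling pups. No sex was taken for the pups here, which leaves age and sex as effects that cannot be told apart, and whether a library pools several animals is not given in the sources used here. In whole islets, a change in the number of cells of a type and a change in RNA per cell cannot be told apart.

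miR-7 is an ancient microRNA enriched in neuroendocrine cells, including pancreatic islet cells. A microRNA is cut from a hairpin precursor whose arms, 5p and 3p, can each give a mature strand. One strand is loaded into Argonaute, where its seed pairs with target transcripts. In mice, miR-7 is known to repress Pax6 in the developing endocrine pancreas, and in adult beta cells it restrains mTOR signalling and insulin exocytosis. The circular RNA Cdr1as binds miR-7, the long non-coding RNA Cyrano promotes its decay, and miR-671 directs cleavage of Cdr1as.

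The mature sequences show which features can be told apart by reading them. They are those of RefSeq (GRCr8), matched by name for 5 of the 6 features, and capitals mark the seed, bases 2 to 8.
miR-7a-5p: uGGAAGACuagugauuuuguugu
miR-7b-5p: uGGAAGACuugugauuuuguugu
miR-7a-1-3p: aCAACAAAucacagucugccau
miR-7a-2-3p: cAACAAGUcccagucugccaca
The miR-7a-1 and miR-7a-2 loci carry the same mature 5p strand. miR-7b-5p differs from it by A10U, with positions counted from 1 at the 5′ end, so that 22 of 23 bases are identical and the seed is shared. Among 724 mature entries in the RefSeq table, only the names miR-7a-5p and miR-7b hold this seed. The 3p strands of miR-7a-1 and miR-7a-2 match at 18 of 21 aligned bases with an offset of 1 base, and their seeds differ. A 3p read can therefore be placed at its miR-7a locus, while a 5p read of mature length cannot.

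The hairpins show where reads longer than the mature 5p strand would begin to differ. Capitals mark the mature strands listed by RefSeq.
miR-7a-1: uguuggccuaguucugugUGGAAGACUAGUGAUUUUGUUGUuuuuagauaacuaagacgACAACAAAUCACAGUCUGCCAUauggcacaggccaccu
miR-7a-2: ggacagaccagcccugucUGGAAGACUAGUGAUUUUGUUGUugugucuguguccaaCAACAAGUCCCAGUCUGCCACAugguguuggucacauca
miR-7b: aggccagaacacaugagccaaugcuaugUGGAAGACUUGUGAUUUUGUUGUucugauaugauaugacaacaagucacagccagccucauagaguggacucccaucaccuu
From the start of the 5p strand, the miR-7a hairpins first differ at position 25 (U25G from miR-7a-1 to miR-7a-2), past the 23 bases of the mature strand. On the other side, the base just before the strand also differs, g in miR-7a-1 and c in miR-7a-2. How the authors assigned reads that match both loci is not given in the sources used here. In the Rnor_5.0 coordinates of the files, miR-7a-1-5p lies at chr17:8879407-8879429 and miR-7a-1-3p at chr17:8879448-8879469, both on the plus strand. miR-7a-2-5p lies at chr1:141551360-141551382 and miR-7a-2-3p at chr1:141551398-141551419, also on the plus strand. miR-7b-5p lies at chr9:9803964-9803986 and miR-7b-3p at chr9:9803931-9803953, on the minus strand. In the RefSeq gene table (GRCr8), each miR-7 gene overlaps 1 other gene. These are Hnrnpk, which encodes an RNA-binding protein, for miR-7a-1, LOC120099863 for miR-7a-2 and Rpl35l3 for miR-7b. None of the other features in the files, sense or antisense, lay within 10000 bases of a miR-7 locus.

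Library totals ranged from 1432929 to 2847837 counts in adults and from 1599157 to 4483017 counts at P10. The islet label fitted the leading marker: miR-375, the main miRNA of pancreatic endocrine cells, summed to between 251324 and 325137 CPM in adults and between 113193 and 166043 CPM at P10. CPM are counts scaled to a common library size, here with an edgeR TMM factor for each library. Exocrine acinar markers (miR-216a, miR-216b and miR-217) summed to 28.6 to 127 CPM in adults and 22.2 to 37.7 CPM at P10, and 2 of their 3 tested arms were higher in adults. Mesenchymal markers (miR-143, miR-145 and miR-199a) summed to 17177 to 58305 CPM in adults and 33256 to 61145 CPM at P10, and 4 of 6 arms were lower in adults. Leukocyte markers summed to 249 to 833 CPM in adults and 681 to 1427 CPM at P10, with 1 of 4 arms lower. Of the erythroid markers 0 of 2 tested arms passed, with sums of 14.5 to 63.8 CPM in adults and 24.2 to 72.3 CPM at P10. Of the neural and glial markers 0 of 3 tested arms passed, with sums of 107 to 181 CPM in adults and 131 to 160 CPM at P10. These 3 arms were all of miR-128, and only 2 of the 4 names searched were found. With TMM, 21.2% of all 457 tested features were called higher in adults and 29.5% lower. With library totals alone, 1 of 3 acinar arms was higher, and 6 of 6 mesenchymal and 3 of 4 leukocyte arms were lower. That scaling called 54 of all 457 features higher and 187 lower. With upper-quartile scaling, 3 of 3 acinar arms, 1 of 4 leukocyte arms and 1 of 3 neural and glial arms were higher. Under it, 4 of 6 mesenchymal and 1 of 4 leukocyte arms were lower. Upper-quartile scaling called 127 of all 457 features higher and 103 lower. The endothelial list matched none of the names used. P10 replicate 1 stood apart in several miR-7 ratios, and those results are also given without it. The part of these cell types in the miR-7 results was not tested.

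Both miR-7a 5p features, miR-7b-5p and miR-7a-2-3p were more abundant in adult than in P10 islets. Of the 6 features 5 passed the abundance filter, and 4 of these were higher in adults, 0 were lower and 1 did not pass the test (edgeR quasi-likelihood, Benjamini-Hochberg adjusted p under 0.05 over 457 features). Of all 457 features, 21.2% were called higher and 29.5% lower in adults, 50.8% in either direction. The median log2 fold change of all tested features was -0.11. For 3 miR-7 features every adult library lay above every P10 library, which held for 13.6% of all features. Library totals alone, in place of TMM, shift the median log2 fold change of all features by -0.26, and upper-quartile scaling shifts it by 0.16; all 5 tested miR-7 features kept a positive log2 fold change under both.

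miR-7a-1-5p, the feature with the most miR-7 counts, ranged from 369 to 831 CPM in adults, with a median of 561 CPM. At P10 it stood at 169.8, 161, 261, 209.7 and 343 CPM in replicates 1, 3, 4, 5 and 6. All 6 adult libraries exceeded the highest P10 library, replicate 6. The adult mean was 565 ± 176 CPM (SD, n = 6) and the P10 mean 229 ± 75.1 CPM (SD, n = 5), and the feature ranked 80 of 898 by mean CPM in adults and 128 at P10. The log2 fold change was 1.30 ± 0.25 (SE; edgeR adjusted p = 0.000762), which placed it 23rd by size among the 97 rises.

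miR-7a-2-5p, the feature for the same mature strand at the other locus, ranged from 218 to 493.2 CPM in adults, with a median of 346 CPM. At P10 it stood at 103, 104, 163, 111 and 212 CPM in replicates 1, 3, 4, 5 and 6. The ages did not overlap, although the lowest adult library (218 CPM) and the highest P10 library (212 CPM) were close. The log2 fold change was 1.29 ± 0.26 (SE; edgeR adjusted p = 0.000942), a 2.45-fold rise. Because the mature strand is the same, these features are no independent evidence of each other. With the loci merged into 1 miR-7a-5p feature, the log2 fold change was 1.33 ± 0.25 (SE) whether the highest or the summed count was used (edgeR adjusted p = 0.000728 and 0.000678).

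miR-7b-5p ranged from 144 to 346 CPM in adults, with a median of 228 CPM. At P10 it stood at 126, 76.0, 145, 117 and 201 CPM in replicates 1, 3, 4, 5 and 6. The ages overlapped, and 3 of the 6 adult libraries exceeded the highest P10 library. The adult mean was 227 ± 77.4 CPM (SD, n = 6) and the P10 mean 133 ± 45.7 CPM (SD, n = 5). On the log2 scale the fold change was 0.77, with an SE of 0.27 and an edgeR adjusted p of 0.0297. The call ended with library totals alone (log2 fold change 0.51, edgeR adjusted p = 0.162). It also ended when adult replicate 2, 5 or 6 or P10 replicate 1, 3 or 5 was left out, with edgeR adjusted p between 0.0538 and 0.0687.

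**Figure D1:**
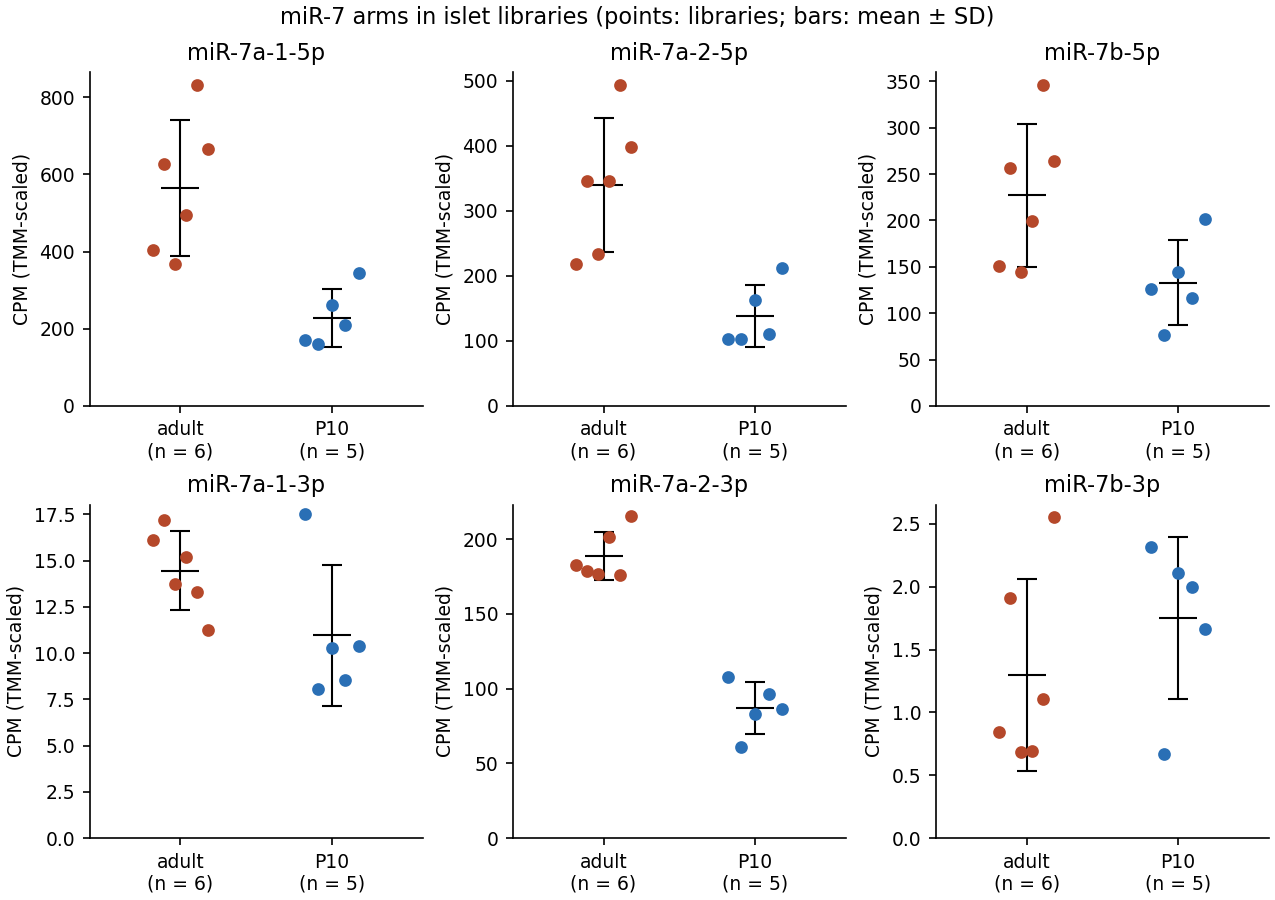
CPM (y axis, from 0) of the 6 miR-7 features in each adult library (left in each panel, n = 6) and each P10 library (right, n = 5); points are libraries and bars are the mean ± SD. The ages are apart for miR-7a-1-5p, miR-7a-2-5p and miR-7a-2-3p, and overlap for miR-7b-5p, miR-7a-1-3p and miR-7b-3p.

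The 3p strands of the miR-7a loci can be told apart by sequence, and 1 of the 2 passed the test. miR-7a-2-3p lay between 176 and 215 CPM in adults, with a median of 181 CPM, and at P10 it stood at 108, 61.2, 83.4, 96.6 and 86.3 CPM in replicates 1, 3, 4, 5 and 6. No adult library came near the P10 range. It rose to 189 ± 16.2 CPM in adults (SD, n = 6), against 87.1 ± 17.4 CPM at P10 (SD, n = 5), a 2.16-fold difference (log2 fold change 1.11 ± 0.15 SE; edgeR adjusted p = 4.70e-05). Its standard error was the smallest of the 5 tested miR-7 features, and its adult libraries varied by 8.60% of their mean (coefficient of variation), against 31.1% for miR-7a-1-5p.

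miR-7a-1-3p rested on few reads, 19 to 45 per adult library and 12 to 53 per P10 library. It lay between 11.2 and 17.2 CPM in adults, with a median of 14.5 CPM. At P10 it stood at 17.5, 8.07, 10.3, 8.55 and 10.4 CPM in replicates 1, 3, 4, 5 and 6. P10 replicate 1 lay above every adult library and the other P10 libraries lay below every one. At 0.38 ± 0.23 (SE), its log2 fold change did not pass (edgeR adjusted p = 0.172). Without P10 replicate 1 it passed as higher (log2 fold change 0.61 ± 0.18 SE, edgeR adjusted p = 0.0160).

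miR-7b-3p was at 1 to 5 counts in adult libraries and 1 to 8 counts in P10 libraries and did not pass the abundance filter. Its mean was 1.30 CPM in adults and 1.75 CPM at P10, and without the filter its log2 fold change was -0.35 ± 0.48 (SE; edgeR adjusted p = 0.606). A difference was not detectable at this depth.

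**Figure D2:**
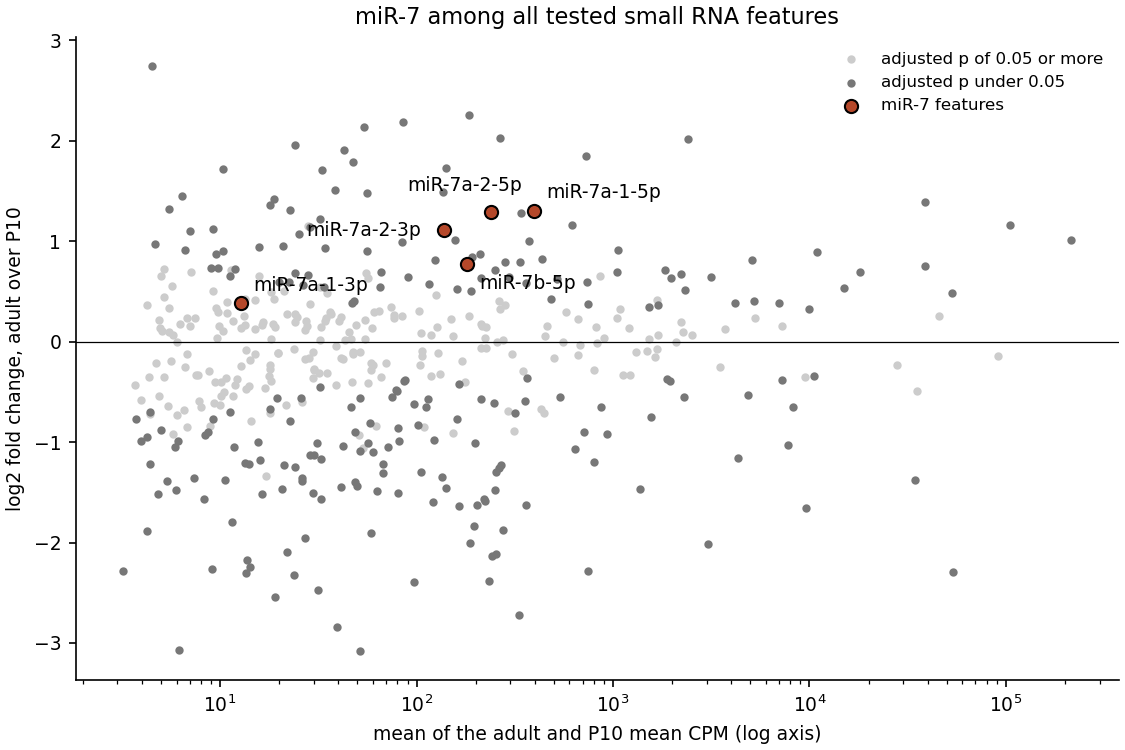
Log2 fold change of adult over P10 (y axis) against the mean of the adult and P10 mean CPM (x axis, log scale) for the 457 tested features; dark grey points passed the adjusted p threshold of 0.05, light grey points did not, and miR-7 features are in red. miR-7a-1-5p and miR-7a-2-5p lie highest of the miR-7 features, at 1.30 and 1.29, and miR-7a-1-3p lies lowest, at 0.38.

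Within adult libraries, the order of mean CPM was miR-7a-1-5p (565), miR-7a-2-5p (339), miR-7b-5p (227), miR-7a-2-3p (189), miR-7a-1-3p (14.5) and miR-7b-3p (1.30). The order was the same at P10, with means of 229, 139, 133, 87.1, 10.96 and 1.75 CPM. Neighbours in this order whose ranges overlapped were miR-7a-1-5p with miR-7a-2-5p, miR-7a-2-5p with miR-7b-5p and miR-7b-5p with miR-7a-2-3p at both ages. Within every library miR-7a-1-5p had more reads than miR-7a-2-5p. Their mature strand is the same, and how its reads were assigned to the loci is not known. Ligation and PCR favour some sequences, so the order of different strands is less certain than the change of a single strand. For the miR-7 share each mature strand was counted once, with the higher miR-7a locus standing for miR-7a-5p in each library. Reads of the lower 5p locus were left out. So counted, miR-7 took 0.0927% ± 0.0273 of the library counts in adults (n = 6) and 0.0515% ± 0.0147 at P10 (n = 5), each as mean ± SD. This share was 0.0413 percentage points higher in adults, although the ages overlapped. The two-sided exact permutation p was 0.0195 from all 462 splits, and 0.0260 after adjustment over the 4 composition measures. These measures include the 3p and 5p ratios between the miR-7a loci, which were chosen after their values were seen. With the reads of both miR-7a 5p loci counted, the difference in share was 0.0576 percentage points (exact permutation p = 0.0173).

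By these counts the paralogs did not change by the same amount: miR-7b-5p was lower relative to miR-7a-5p in adults. The strands differ only by A10U, and the aligner was not stated. Whether reads of either strand were counted as the other was not tested. Ratios were taken between CPM plus 2, with the higher miR-7a locus standing for miR-7a-5p in each library. There were 0.376 to 0.418 miR-7b-5p per miR-7a-5p in the adult libraries. The P10 libraries held 0.744, 0.477, 0.558, 0.561 and 0.588 miR-7b-5p per miR-7a-5p in replicates 1, 3, 4, 5 and 6. Adult libraries were tightly grouped and all lay below every P10 library, while P10 replicate 1 stood above the rest of its age. The log2 ratio averaged -1.32 ± 0.05 in adults (SD over 6 libraries) and -0.79 ± 0.23 at P10 (SD over 5 libraries). The difference was -0.53 (exact permutation p = 0.00216, two-sided, the smallest that the splits can give; adjusted p = 0.00433). Without P10 replicate 1 it was smaller, at -0.44 (exact permutation p = 0.00476). The level of the ratio depends on how miR-7a-5p is counted, and it is lower in every library with the loci summed. The log2 difference between the ages was then -0.53 (exact permutation p = 0.00216).

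The 3p strands of the miR-7a loci were also set against each other, in a ratio chosen after its values were seen and so given with no p-value. By read counts, the adult libraries held 10.4 to 19.2 miR-7a-2-3p per miR-7a-1-3p, and the P10 libraries held 6.17, 7.58, 8.10, 11.3 and 8.30 in replicates 1, 3, 4, 5 and 6. The ages overlapped, since P10 replicate 5 lay above adult replicate 2, at 10.4. With 2 CPM added to both strands the ranges were 9.42 to 16.4 in adults and 5.64 to 9.35 at P10, which do not overlap, so that their separation rests on the added CPM. The log2 ratio with 2 CPM added was 3.54 ± 0.27 in adults (SD over 6 libraries) and 2.80 ± 0.27 at P10 (SD over 5 libraries). The same ratio of the 5p features, whose mature strand is 1 sequence, was -0.73 ± 0.14 in adults and -0.72 ± 0.11 at P10 (SD). miR-7a-1-5p held between 58.8% and 64.9% of the reads of both 5p features in adult libraries and between 60.9% and 65.4% in P10 libraries. In single libraries the 95% Clopper-Pearson interval reached from 56.0% to 61.6% at the lowest share (adult replicate 4) and from 62.6% to 68.2% at the highest (P10 replicate 5); these intervals cover counting error only, as reads without molecular identifiers are not independent molecules.

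Arm usage, taken as log2 of 5p over 3p (CPM plus 2), was 0.92 ± 0.31 (SE) higher in adults for miR-7a-1 (limma adjusted p = 0.0334 over 127 precursors). Of these precursors 27.6% passed in either direction and 14.2% passed with more 5p in adults. There were 25.1 to 62.6 reads of 5p per read of 3p in adults, and at P10 there were 9.70 in replicate 1, 20 in replicate 3, 25.3 in replicate 4, 24.5 in replicate 5 and 33.0 in replicate 6. The ages overlapped, and P10 replicate 1 was the lowest library. The call ended with a prior count of 0.5 in place of 2 (limma adjusted p = 0.0734). It also ended without adult replicate 2, 5 or 6 or P10 replicate 1 or 3, with limma adjusted p between 0.0541 and 0.0909. For miR-7a-2 the arms were closer to even, with 1.19 to 2.80 reads of 5p per read of 3p in adults and 0.957 to 2.46 at P10. Its arm ratio differed by 0.17 ± 0.28 (SE) and did not pass (limma adjusted p = 0.726), and the difference was -0.0024 without P10 replicate 1. For both loci this ratio depends on how the authors divided 5p reads between them. miR-7b gave 104 to 313 reads of 5p per read of 3p in adults and 54.4 to 121 at P10, on 3p counts too low to test.

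**Figure D3:**
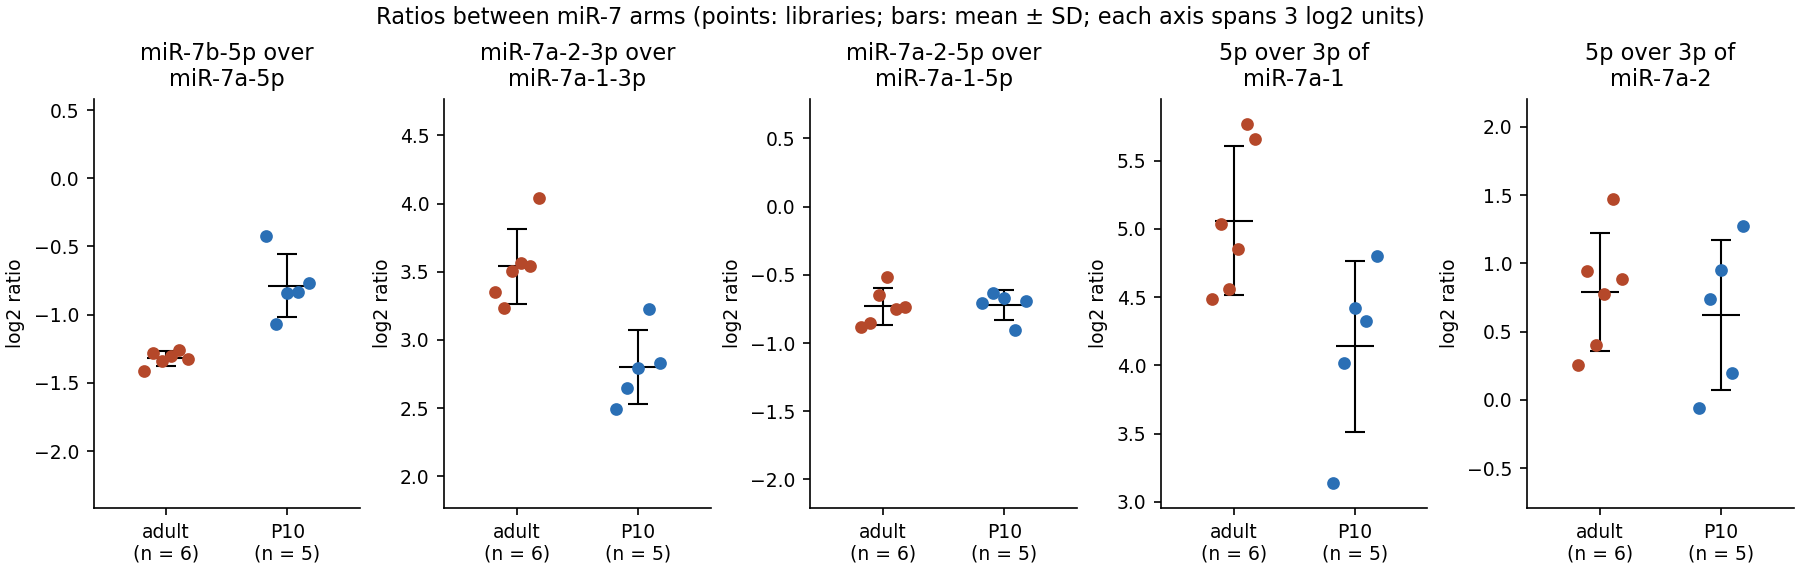
Log2 ratios between miR-7 arms, from CPM plus 2 (y axes, each spanning 3 log2 units) in adult (left, n = 6) and P10 libraries (right, n = 5); points are libraries and bars are the mean ± SD. The ages are apart for miR-7b-5p over miR-7a-5p (means -1.32 and -0.79) and just apart for miR-7a-2-3p over miR-7a-1-3p (3.54 and 2.80), where they overlap by read counts; they overlap in the other panels.

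Within each age the 5p features tended to be higher in libraries with larger totals. At P10 the order of the 5 libraries by miR-7a-1-5p CPM was the order of their totals, from replicate 3 (1599157 counts, 161 CPM) to replicate 6 (4483017 counts, 343 CPM). In adults the highest value, 831 CPM, was in replicate 5, which had the largest total (2847837 counts), and the lowest values were in replicates 3 and 1, at 369 and 404 CPM. The adult order was not that of the totals. Replicate 6 (2060534 counts, 667 CPM) lay above replicate 2 (2722608 counts, 627 CPM). After each age was centred on its own mean, the log2 CPM of miR-7b-5p had a Pearson r of 0.92 with the log2 library total over the 11 libraries, the highest of the 457 features. miR-7a-1-5p followed at 0.89, ranking 3rd, and miR-7a-2-5p at 0.80, ranking 7th. The 3p strands did not share this, with r of 0.29 for miR-7a-2-3p and 0.04 for miR-7a-1-3p. Over all features the median r was -0.02, with quartiles of -0.34 and 0.33. The library total is also in the denominator of the CPM, and these values are a description.

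Adult libraries had smaller totals on average (2038880 counts in adults and 2985140 counts at P10), while their 5p levels were higher. In a fit with the log2 library total as a covariate, added after the values were seen, the log2 fold changes of the 5p features were larger. They were 1.74 ± 0.16 for miR-7a-1-5p, 1.70 ± 0.20 for miR-7a-2-5p and 1.28 ± 0.17 for miR-7b-5p (SE; edgeR adjusted p = 5.65e-06, 3.49e-05 and 5.61e-05). For miR-7a-2-3p the value was 1.17 ± 0.18 and for miR-7a-1-3p 0.37 ± 0.27 (SE; edgeR adjusted p = 0.000200 and 0.277). The part of depth in the spread of the 5p features was not tested beyond this fit.

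**Figure D4:**
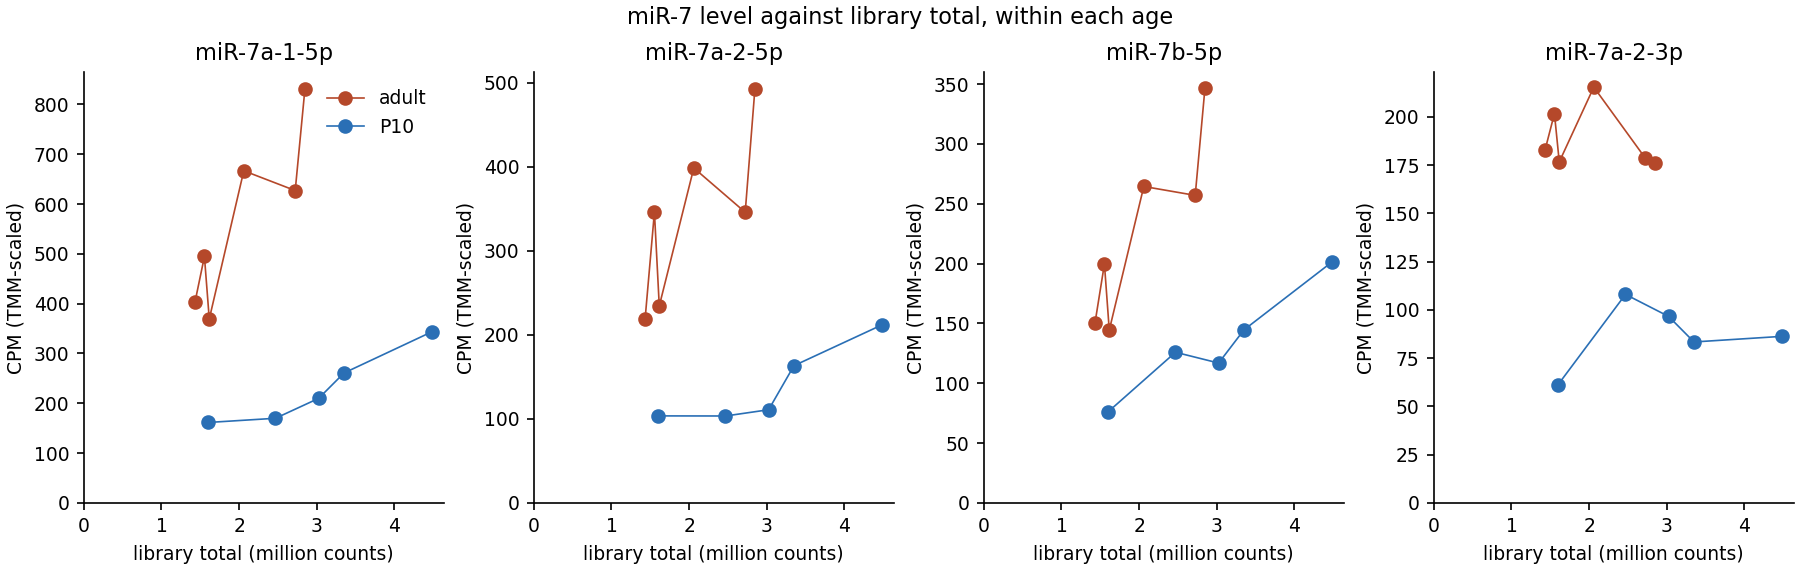
CPM (y axes, from 0) against the library total in counts (x axes, from 0) for the 3 miR-7 5p features and miR-7a-2-3p; points are libraries, joined within adults (red, n = 6) and within P10 (blue, n = 5). The 5p features tend to climb with the total at both ages, to 831 CPM in adults and 343 CPM at P10 for miR-7a-1-5p, while miR-7a-2-3p in adults stays between 176 and 215 CPM.

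Of 14 islet and neuroendocrine miRNA names searched, 11 were found. Of their 15 tested arms, 6 were higher in adults, 2 were lower and 7 did not pass. Over all 457 features, 21.2% were called higher and 29.5% lower. The median log2 fold change of these arms was 0.50, against -0.11 for all tested features. With library totals alone 3 were higher and 2 lower, where 54 of all 457 features were higher and 187 lower. With upper-quartile scaling 9 were higher and 1 lower, where 127 of all 457 features were higher and 103 lower. miR-375-3p, known in mice to limit insulin exocytosis and to maintain beta cell mass, averaged 287885 ± 26982 CPM in adults (SD, n = 6) and 143152 ± 21148 CPM at P10 (SD, n = 5; log2 fold change 1.01 ± 0.11 SE, edgeR adjusted p = 8.67e-06). The largest changes on the list were those of miR-383-5p, at 67.5 CPM in adults and 17.6 CPM at P10 (log2 fold change 1.91; edgeR adjusted p = 1.54e-05), and miR-129-1-3p, at 217 CPM in adults and 65.6 CPM at P10 (1.73; edgeR adjusted p = 0.000502). Of the other abundant members, miR-204-5p had a log2 fold change of 0.51 (edgeR adjusted p = 0.0245; 0.274 with library totals alone). miR-153-3p had one of 0.65 and did not pass (edgeR adjusted p = 0.0524), but passed with DESeq2 size factors (0.0280), upper-quartile scaling (0.0308) and TMM without miR-375-3p (0.0452). miR-183-5p fell by 0.38 on the log2 scale (edgeR adjusted p = 0.0191; 0.0652 with DESeq2 size factors and 0.199 with upper-quartile scaling). The other lower arm, named after its values were seen, was miR-184-3p, at 155 ± 44.6 CPM in adults and 371 ± 64.2 CPM at P10 (SD). Its ages did not overlap, and it fell by 1.26 on the log2 scale (edgeR adjusted p = 0.000160), with a call under all 4 other scalings. miR-7a-1-5p and miR-7a-2-5p thus had larger log2 fold changes than miR-375-3p, a difference that was not tested.

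miR-671, the miRNA that cleaves Cdr1as, was tested for both arms. miR-671-5p, at 12.5 ± 5.17 CPM in adults (SD, n = 6) and 5.78 ± 1.66 CPM at P10 (SD, n = 5), rose (log2 fold change 1.13 ± 0.31 SE; edgeR adjusted p = 0.00754). miR-671-3p, at 83.3 ± 15.6 CPM in adults and 70.8 ± 16.8 CPM at P10 (SD), did not pass (log2 fold change 0.24, or -0.02 with library totals alone; edgeR adjusted p = 0.271). Cdr1as, Cyrano and the mRNA targets of miR-7 were not measured by these libraries.

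The features whose profile over the 11 libraries was most like that of miR-7a-1-5p were sought among 223 features of at least 50 CPM on average. Likeness was the mean absolute difference of the centred log2 CPM, whose median over the 223 was 0.71. The nearest were miR-3575-5p (0.21) and miR-3548-5p (0.24), both counted antisense, then miR-425-5p (0.28), miR-141-5p (0.29) and miR-22-3p (0.29). All 5 were higher in adults, with log2 fold changes between 0.87 and 1.39. They were chosen for likeness to a feature that itself rose, so their rise follows from the choice and is no separate result. By the same measure miR-7a-2-5p was at 0.09, miR-7b-5p at 0.26, miR-7a-2-3p at 0.37 and miR-7a-1-3p at 0.53. Thus 2 features outside the family were nearer to miR-7a-1-5p than its paralog miR-7b-5p was.

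**Figure D5:**
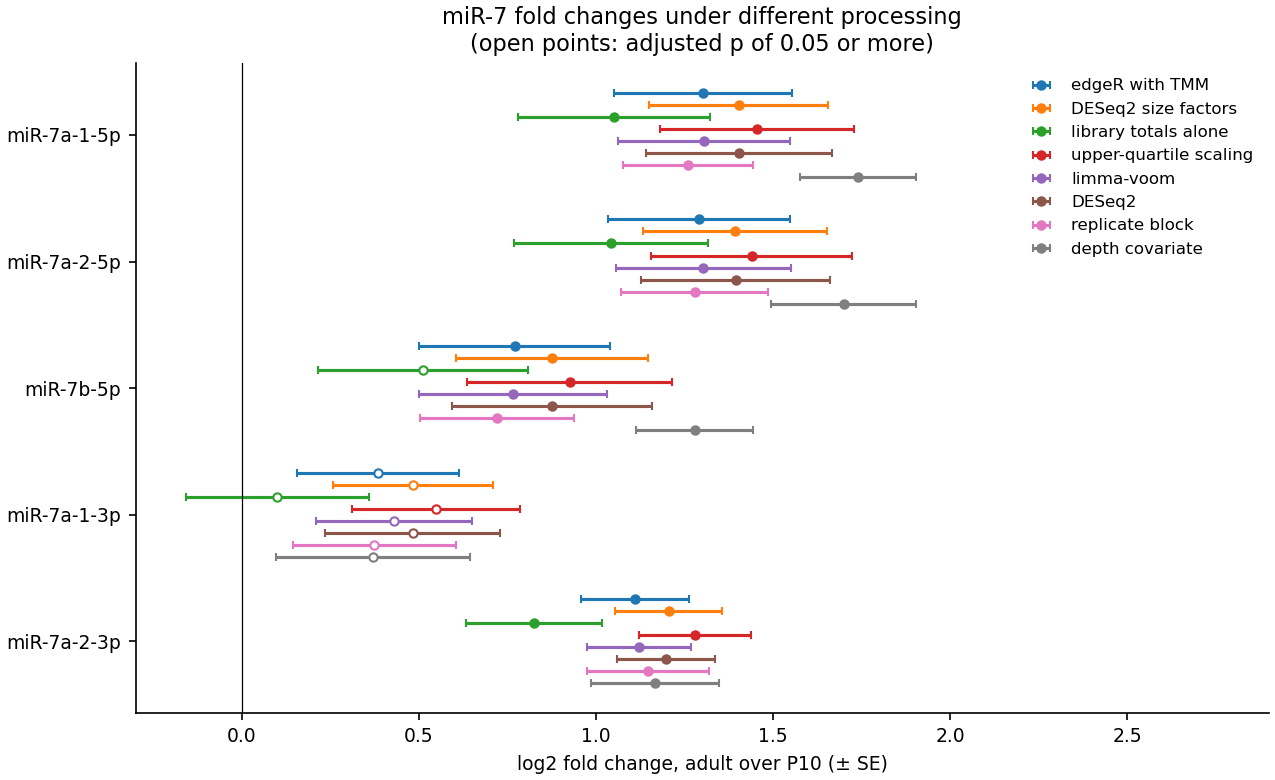
Log2 fold change of adult over P10 (x axis, ± SE) of the 5 tested miR-7 features (rows) under 8 ways of processing (colours); filled points have an adjusted p under 0.05 and open points do not. Only miR-7b-5p changes between filled and open, with library totals alone (0.51), and miR-7a-1-3p is open throughout.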

How the data were processed

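Small RNA of islets was prepared by adapter ligation with Illumina TruSeq reagents, per the labels' protocols. What the authors deposited are unnormalized read counts for each hairpin arm and locus, with Rnor_5.0 (rn5) coordinates per the file headers. The submitters' processing notes name edgeR and DESeq. The aligner and the rule for reads with several matches were not stated in the labels or headers. The series table held the same counts as the 11 library tables. Each name entered once, with its highest count per library. In R 4.3.3, edgeR 4.0.16 (filterByExpr, TMM, robust quasi-likelihood, Benjamini-Hochberg over all 457 features) compared adult with P10 libraries. limma 3.58.1 tested arm ratios, and exact permutation over 462 splits tested the miR-7b to miR-7a ratio and the miR-7 share, with ratios on log2(CPM + 2). DESeq2 1.42.0, limma-voom, other scalings and filters, merged rows or loci, the replicate number as a block, and each library left out were alternatives.

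The members and lists were chosen with earlier results of these data known. Named miRNAs are all miR-7 features, features within 10000 bases, the 5 most alike in profile, the 4 most abundant and 2 most changed of the islet list, and both miR-671 arms. On simulated counts for adult against P10 (451 features), edgeR recovered 56.2% of 1.5-fold, 86.4% of 2-fold and 100% of 4-fold changes and called 4 of 259 unchanged features. For arm ratios, 27 of 30 simulated 3-fold changes were found, with 1 call among 92 unchanged precursors. Libraries of 1 age all differed beyond counting noise (chi-square per degree of freedom at least 12.1). Adult replicates 4, 5 and 6 were closest to each other (12.1 to 24.7), against at least 47.7 for the other adult pairs. What groups these libraries was not tested.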

Additional observations from a re-analysis of the deposited data

Results flagged for a closer look

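Of 24 groups of miR-7 values examined for a library far from the others, 2 were flagged, where chance flags about 1 in 20 groups. miR-7a-1-3p stood at 17.5 CPM in P10 replicate 1, and the next highest P10 library was at 10.4 CPM; the gap took 0.753 of the range of the group, above the critical value of 0.71. The log2 ratio of miR-7a-2-5p to miR-7a-1-5p stood at -0.91 in P10 replicate 5, with the nearest P10 library at -0.70 and a gap of 0.731 of the range.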

How the results depend on the processing

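The log2 fold changes of miR-7a-1-5p (1.05 to 1.74), miR-7a-2-5p (1.04 to 1.70) and miR-7a-2-3p (0.83 to 1.28) kept their direction and passed the test under all 14 alternatives and without each library in turn. The number of miR-7 features called was 4, or 3 with library totals alone and with loci merged, and 3 or 4 without single libraries. Library totals alone gave 54 features called higher in place of 97, and a miR-7b-5p change of 0.51 that did not pass; 22.4% of its calls were higher, against 55.2% with upper-quartile scaling. A prior count of 0.5 gave a miR-7a-1 arm change of 0.88, which did not pass. The causes were not tested. Without single libraries, the log2 changes ran from 0.63 to 0.97 for miR-7b-5p and from 0.31 to 0.61 for miR-7a-1-3p. Arm changes ran from 0.67 to 1.08 for miR-7a-1 and from -0.0024 to 0.33 for miR-7a-2, and the ratio of miR-7a-2-5p to miR-7a-1-5p from -0.0576 to 0.0193. Same-numbered libraries of the 2 ages did not deviate together (correlations from -0.22 to 0.22 over 5 pairs, and 0 of 5 P10 libraries correlated best with their own number), so the numbers were not taken to pair them. With the replicate block 93 features were higher and 112 lower, in place of 97 and 135, and the same number of miR-7 features was called. Permuted within the 5 pairs, where the smallest possible p is 0.0625, the miR-7b-5p to miR-7a-5p difference was -0.54 and the share difference 0.0389 percentage points. For the ratios chosen after their values were seen, the mean differences within pairs were 0.80 for miR-7a-2-3p to miR-7a-1-3p and 0.014 for miR-7a-2-5p to miR-7a-1-5p. Depth limits miR-7b-3p, at 1 to 8 counts a library, and miR-7a-1-3p, at 12 to 53.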

Other observations

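The features whose level followed the library total most closely within each age, after miR-7b-5p (Pearson r 0.92 over the 11 libraries), were miR-3575-5p counted antisense (0.91), miR-7a-1-5p (0.89), miR-582-5p (0.88), miR-494-3p (0.85) and miR-137-3p (0.83). Thus 2 of the first 3 were miR-7 strands. These were named after their values were seen.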
